A study of Rattus norvegicus with 15 samples.

Results

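The fragments of glycine transfer RNA with the anticodon GCC, named tRF-Gly-GCC in the deposited table, were described in rat left ventricle. They were taken as every row whose name starts with tRF-Gly-GCC, which gave 33 of the 665 tRNA-derived fragments (tRFs) and 33 of all 714 tRNA-derived small RNAs (tsRNAs) listed. The 15 libraries came from 15 Sprague-Dawley rats, 1 library per rat and 5 rats per group. Control rats were untreated, isoproterenol rats were given isoproterenol and are titled as having myocardial ischemia, and restricted rats were put on caloric restriction before the same agent. No group with caloric restriction alone was analysed here, so a comparison of restricted rats with controls holds the diet and the drug together. None of the sources used here gives the dose, the age of the rats or the length of the diet. Ventricle tissue holds many cell types, and a table of tsRNAs has no marker gene by which the labelled tissue could be checked.

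Isoproterenol is a beta-adrenergic agonist, and high doses injure heart muscle in rats. Transfer RNAs carry amino acids to the ribosome, and tRNA-Gly-GCC is one of the tRNAs that carry glycine. Cells cut mature tRNAs into shorter pieces. A ribonuclease such as angiogenin, which acts under stress, cuts in the anticodon loop and leaves the longer products called tiRNAs, while tRFs are the other, mostly shorter products. Fragments from the 5′ end of tRNA-Gly-GCC are among the most abundant tsRNAs in several mammalian tissues and in body fluids. RefSeq (assembly GRCr8) lists 22 rat genes for tRNA-Gly-GCC, each 71 bases long, beside 5 for the anticodon CCC and 21 for UCC. Reads of such copies cannot be told apart, and fragments that differ by a base at an end can share most of their sequence, so each name below is uncertain as a single species. The serial number in a name, such as 026, is the deposited table's own, and the position of a fragment in the tRNA was not used here.

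Values are CPM, the reads of a fragment per 1000000 reads of the authors' library total. That total lay between 106082 and 1128887 reads, and a single read counted for 0.886 CPM in the deepest library and 9.43 CPM in the shallowest. Listed tsRNAs accounted for 24.2 to 35.7% of the total in control libraries, 49.4 to 78.7% in isoproterenol libraries and 37.0 to 67.3% in restricted libraries. A difference in CPM between groups therefore stands beside a difference in how much of the library was tsRNA at all. For that reason each comparison is also given as a share of the fragments of the same tRNA, and under other scalings. In bulk tissue, fewer cells of a type and less RNA per cell cannot be told apart.

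Fragments of tRNA-Gly-GCC dominated the tsRNA pool of every library. They took 50.4 to 82.2% of the listed tsRNA reads, with a mean of 66.3% over 15 libraries, while the other glycine families took 0.22% (tRF-Gly-CCC) and 0.21% (tRF-Gly-TCC). Of the other families compared, tRF-Glu-CTC came next with 2.76%. The share of tRF-Gly-GCC was 61.6, 54.6, 55.8, 50.4 and 69.2% in controls 1 to 5, 82.2, 68.6, 55.4, 78.6 and 78.8% in isoproterenol rats 1 to 5 and 53.1, 81.9, 65.8, 79.1 and 59.4% in restricted rats 1 to 5. Group means were 58.3 ± 7.31%, 72.7 ± 10.9% and 67.9 ± 12.4% (SD, n = 5 each), and all 3 groups overlapped. As a level, the summed CPM was 192749.8, 132316, 149072, 126921 and 246811 in controls. It was 605366, 347415, 274071, 618121 and 436755 in isoproterenol rats, all 5 above the highest control. In restricted rats it was 205588, 551331, 311109.8, 489156 and 219668, which overlapped both other groups. No test was made of these sums, since the members were chosen with earlier results of these data known.

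**Figure D1:**
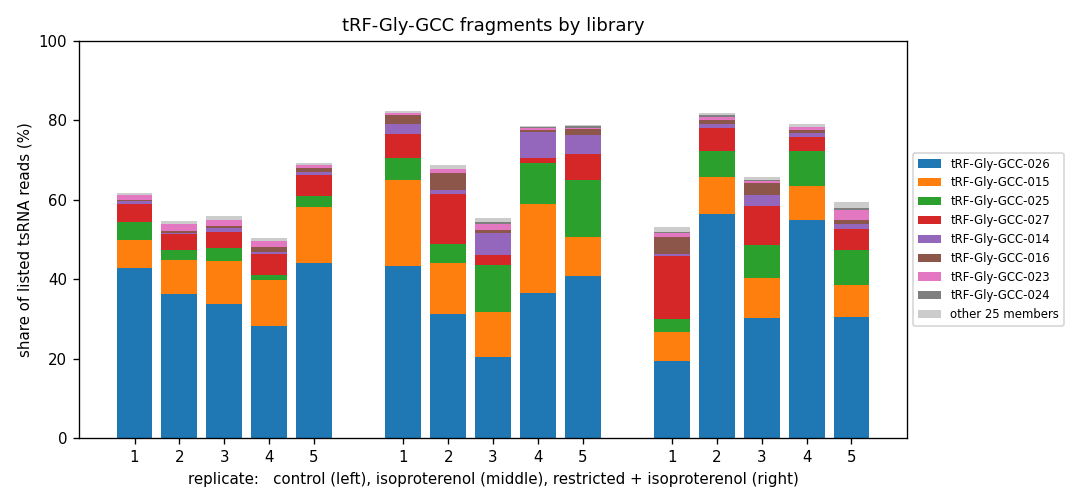
Share of the listed tsRNA reads (%, y axis) taken by each of the 8 most abundant tRF-Gly-GCC fragments and by the other 25 together, stacked, in each of 15 libraries (x axis, replicate number within control, isoproterenol and restricted plus isoproterenol rats). The whole bar runs from 50.4 to 82.2%, and tRF-Gly-GCC-026 is the largest segment in every library. As a part of the whole bar, tRF-Gly-GCC-014 is larger in all 5 isoproterenol rats than in any control, and tRF-Gly-GCC-025 in isoproterenol rats 3 to 5.

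A few fragments made up nearly all of this. tRF-Gly-GCC-026 was the most abundant tsRNA of any tRNA in all 15 libraries, and the 7 most abundant members together held 96.9 to 99.4% of the family's reads in a library. By mean CPM over 15 libraries the order was tRF-Gly-GCC-026, 015, 025, 027, 014, 016, 023 and 024, and their numbers fall into 2 runs, 014 to 016 and 023 to 027. The other 25 members together made up 1.05 ± 0.406% of the family in controls, 0.938 ± 0.705% in isoproterenol rats and 1.52 ± 0.849% in restricted rats (SD, n = 5 each). Among them, 19 members had at most 34 reads in any library. All 33 members passed the filter on low values (at least 1 CPM in at least 5 libraries). tRF-Gly-GCC-005 and 010 reached 1 CPM in no control, and tRF-Gly-GCC-002, 006, 007, 011 and 041 had reads in at most 2 controls. These members passed through treated libraries, so against controls they could hardly be called lower.

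The mix of fragments within the family differed between libraries. tRF-Gly-GCC-026 made up 69.5, 66.3, 60.3, 55.9 and 63.6% of the family's reads in controls 1 to 5 and 52.8, 45.6, 36.9, 46.6 and 52% in isoproterenol rats 1 to 5, and these groups did not overlap. In restricted rats it made up 36.5, 68.9, 45.9, 69.3 and 51.4%, a range wider than that of both other groups. tRF-Gly-GCC-025 held 7.46, 4.41, 5.81, 2.27 and 3.97% in controls, 6.8, 6.87, 21.4, 13.1 and 18.4% in isoproterenol rats and 6.56, 7.94, 12.6, 10.9 and 14.7% in restricted rats, and its isoproterenol and control ranges overlapped. The share of tRF-Gly-GCC-014 was 1.1, 0.684, 1.45, 0.585 and 1.13% in controls and 3.07, 1.71, 9.65, 8.44 and 6.11% in isoproterenol rats, again with no overlap. It was 1.21, 1.19, 4.3, 1.52 and 2.28% in restricted rats, between the other 2 groups and overlapping both. tRF-Gly-GCC-015 held 18.1 ± 4.57%, 21.1 ± 6.4% and 13 ± 1.74% in the 3 groups in that order (SD, n = 5 each), and tRF-Gly-GCC-027 held 8.12 ± 1.5%, 8.05 ± 6.35% and 13 ± 10.1%.

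The comparison of isoproterenol rats with controls asks which tsRNAs differ in the injured ventricle. On the CPM scale 17 of the 33 fragments rose and 0 fell (limma on log2 of CPM plus 1, Benjamini-Hochberg adjusted p under 0.05 over 707 tsRNAs), where 35.5% of all tsRNAs tested rose and 12.4% fell. Their median log2 fold change was 1.61, beside 1.26 over all tsRNAs. All 5 isoproterenol libraries lay above all 5 controls for 7 members and below them for 0, beside 19% and 8.49% of all tsRNAs tested. These 7 were tRF-Gly-GCC-010, 011, 013, 014, 015, 024 and 025. Of them, tRF-Gly-GCC-010 and 011 passed the filter through treated libraries and could not have lain below. Among the 17 called, tRF-Gly-GCC-005, 010, 011 and 041 passed the filter through treated libraries and could hardly have fallen.

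tRF-Gly-GCC-014 changed most among the abundant fragments. Its level was 2123, 905, 2159, 742 and 2783 CPM in controls 1 to 5 and 18597, 5938, 26451, 52196 and 26698 CPM in isoproterenol rats 1 to 5. The lowest treated rat, number 2, was still above the highest control. The log2 fold change was 3.77 (SE 0.54, adjusted p = 2.33e-07), which is 2.52 above the median of all tsRNAs, and it was called under all 22 alternatives tried. tRF-Gly-GCC-025 read 14386, 5841, 8664, 2881 and 9786 CPM in controls and 41151, 23877, 58530.2, 81191 and 80487 CPM in isoproterenol rats. These groups did not overlap either, and its log2 fold change was 2.83 (SE 0.51, adjusted p = 1.42e-05). It was called under 21 of 22 alternatives; with median-of-ratios scaling it was at 1.59 (adjusted p = 0.0743).

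tRF-Gly-GCC-015, the second most abundant, was at 22008, 21093, 28960.2, 29595 and 50283 CPM in controls and 158434, 64473, 55429, 175109 and 53393 CPM in isoproterenol rats. Rats 1 and 4 were far above the other 3, which lay just over the highest control. It rose by 1.61 (SE 0.48, adjusted p = 0.00607) on the log2 scale. tRF-Gly-GCC-016 read 1424, 1363, 1840.4, 3404 and 3326 CPM in controls and 15843, 20595, 4563, 3323 and 7579 CPM in isoproterenol rats, where rat 4 was below the 2 highest controls. It rose by 1.97 (SE 0.53, adjusted p = 0.00237). tRF-Gly-GCC-024, the least abundant of the 8, was at 564, 552, 542, 393 and 429.8 CPM in controls and 1009.7, 953, 1565, 1546 and 1726 CPM in isoproterenol rats with no overlap, and it rose by 1.43 (SE 0.50, adjusted p = 0.0172).

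The remaining 3 of the 8 did not pass the test. tRF-Gly-GCC-026 was at 133938, 87672, 89945, 70941 and 156881 CPM in controls and 319749, 158386, 101016, 288247 and 226929.5 CPM in isoproterenol rats, overlapping, with a log2 fold change of 0.97 (SE 0.50, adjusted p = 0.104) that turned to -0.28 under median-of-ratios scaling. tRF-Gly-GCC-027 was at 13841, 9611, 11406, 13667 and 19116 CPM in controls and 44573, 63848, 13216, 8996 and 36017 CPM in isoproterenol rats, with rat 4 below every control and rat 2 highest, and its log2 fold change was 0.99 (SE 0.51, adjusted p = 0.101), or -0.26 with that scaling. tRF-Gly-GCC-023 was at 3279.9, 3795, 3406, 3483 and 2623 CPM in controls and 3133, 5250.4, 7617, 4184 and 2074 CPM in isoproterenol rats, with a log2 fold change of 0.30 (SE 0.48, adjusted p = 0.615). The ninth member by level, tRF-Gly-GCC-012, went from 931 ± 327 to 1070.3 ± 403 CPM (SD, n = 5 each), and its log2 fold change was 0.19 (SE 0.49, adjusted p = 0.771). Both tRF-Gly-GCC-023 and tRF-Gly-GCC-012 thus lay below the median of all tsRNAs.

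**Figure D2:**
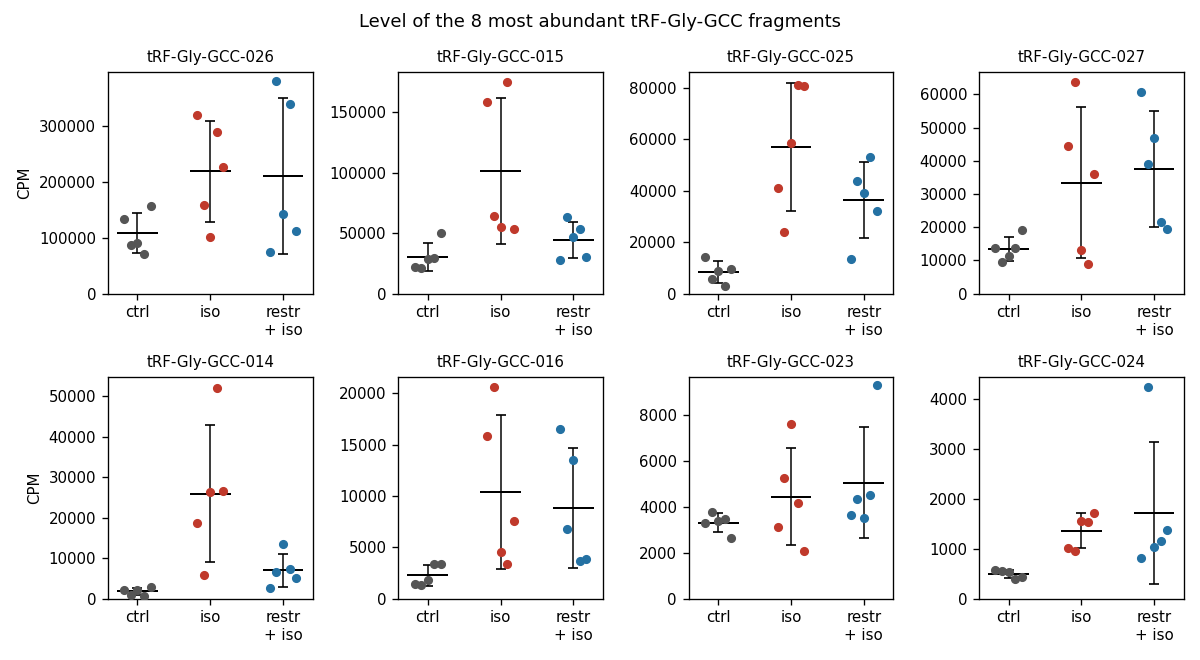
Level of the 8 most abundant tRF-Gly-GCC fragments (CPM, linear y axis that starts at 0 and differs between panels) in control, isoproterenol and restricted plus isoproterenol rats. Points are libraries, the horizontal line is the mean and the bar is 1 SD (n = 5). tRF-Gly-GCC-014 and tRF-Gly-GCC-025 lie above the controls in all 5 isoproterenol libraries, while tRF-Gly-GCC-023, tRF-Gly-GCC-026 and also tRF-Gly-GCC-027 overlap the controls.

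Among the rarer fragments the rise rested on few reads. tRF-Gly-GCC-041 had 0, 0, 0, 1 and 3 reads in controls 1 to 5 and 6, 9, 8, 2 and 4 reads in isoproterenol rats 1 to 5, or 22.3, 70.3, 75.4, 6.09 and 7.77 CPM. Rats 4 and 5 were just below the highest control (7.86 CPM) and rats 1 to 3 above it. Its log2 fold change was 3.77 (SE 0.81, adjusted p = 0.000205), called under all 22 alternatives. tRF-Gly-GCC-010 had 0, 0, 0, 1 and 0 reads in controls and 2, 3, 2, 5 and 4 reads in isoproterenol rats. On pooled reads this was a ratio of 29.4 with an exact 95% counting interval of 4.57 to 1234, and the log2 fold change was 3.65 (SE 0.87, adjusted p = 0.000619), called under all 20 alternatives in which it could be fitted. tRF-Gly-GCC-005 had 0 reads in all 5 controls and 1, 5, 2, 1 and 0 reads in isoproterenol rats. With these treated reads taken as exact, this was 5.52-fold above a floor of 3 reads over the control group. Its adjusted p by limma was 0.00995, and the call was lost without isoproterenol rat 2. Counting intervals cover counting error only, and the floor covers that of the control reads alone.

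The other members named by size of change all lay between 1.92 and 3.02 on the log2 scale. tRF-Gly-GCC-009 rose by 3.02 (SE 0.81, adjusted p = 0.00212). tRF-Gly-GCC-011 rose by 2.60, tRF-Gly-GCC-038 by 2.50, tRF-Gly-GCC-033 by 2.02, tRF-Gly-GCC-020 by 1.97 and tRF-Gly-GCC-019 by 1.93. tRF-Gly-GCC-013, of middle abundance, went from 146, 160.3, 193, 244 and 202 CPM in controls to 605, 367, 933, 1302 and 665 CPM in isoproterenol rats without overlap and rose by 1.92 (SE 0.52, adjusted p = 0.00237). Single libraries decided some of these calls. tRF-Gly-GCC-019 was lost without control 3 or 5 or without isoproterenol rat 1, 2 or 3, tRF-Gly-GCC-020 without control 1 or 5 or isoproterenol rat 2, 3 or 4, and tRF-Gly-GCC-029 without control 2 or 4 or isoproterenol rat 1, 2 or 3. tRF-Gly-GCC-032 was lost without control 4 or isoproterenol rat 3. Without isoproterenol rat 4, tRF-Gly-GCC-027 was called.

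Restricted rats were also set against the same controls. Here 25 of 33 fragments rose and 0 fell, where 47.7% of all tsRNAs tested rose and 10.7% fell, and the median log2 fold change was 2.45 beside 1.60 over all tsRNAs. All 5 restricted libraries lay above all 5 controls for 19 members and below them for 0, beside 31.1% and 9.19% of all tsRNAs tested. Those above include tRF-Gly-GCC-002, 005, 007 and 041, which passed the filter through treated libraries and could not have lain below. The 8 that were not called were tRF-Gly-GCC-001, 004, 006, 012, 013, 015, 023 and 026. Since this comparison and the former share their controls, only the values of each are set side by side. In both, 15 members were called higher. tRF-Gly-GCC-013 and 015 were called in isoproterenol rats alone, 10 members in restricted rats alone, and tRF-Gly-GCC-001, 004, 006, 012, 023 and 026 in neither. A call in one comparison alone does not show a difference between the treatments, for which the direct comparison is given below. By abundance, 5 of the 8 most abundant members were called in each comparison and 4 of the next 6 in each. Of the 19 rarest, 8 were called with isoproterenol and 16 in restricted rats. Over all tsRNAs tested, 35.5% were called higher with isoproterenol and 47.7% in restricted rats. The splits by abundance and by calls in both comparisons were not made for all tsRNAs, so nothing particular to these members is read from them. Among those called in restricted rats, tRF-Gly-GCC-002, 005, 007, 010, 011 and 041 passed the filter through treated libraries and could hardly have fallen.

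tRF-Gly-GCC-041 was again foremost, at 109.9, 60.4, 139.6, 14.5 and 153 CPM (18, 24, 31, 4 and 34 reads) in restricted rats 1 to 5, all above every control, with a log2 fold change of 5.40 (SE 0.81, adjusted p = 7.68e-07). tRF-Gly-GCC-005 had 2, 4, 9, 3 and 12 reads (limma adjusted p = 0.000129). With these reads taken as exact, this was 19.3-fold above the floor of 3 reads over the control group. tRF-Gly-GCC-038 rose by 3.37 (SE 0.79, adjusted p = 0.000579), from 3.67 ± 2.69 to 45.6 ± 22.6 CPM (SD, n = 5 each), and tRF-Gly-GCC-018 rose by 3.24 (SE 0.83, adjusted p = 0.00139), from 5.39 ± 4.07 to 51.2 ± 19.8 CPM. Of the rest, tRF-Gly-GCC-007 rose by 3.21, tRF-Gly-GCC-002 by 3.09, tRF-Gly-GCC-017 by 3.08, tRF-Gly-GCC-030 by 2.95, tRF-Gly-GCC-011 by 2.90 and tRF-Gly-GCC-029 by 2.80. On pooled reads tRF-Gly-GCC-007 had 16 reads in restricted rats and 1 in controls, a ratio of 30.9 with a counting interval of 4.8 to 1296.

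Of the abundant fragments, tRF-Gly-GCC-025 stood at 13491, 43775, 39077, 53255 and 32240.1 CPM in restricted rats 1 to 5. Only rat 1 lay within the control range, and the log2 fold change was 2.18 (SE 0.51, adjusted p = 0.0005). tRF-Gly-GCC-014 stood at 2491, 6549.7, 13385, 7415 and 5009.8 CPM, with rat 1 under the highest control, and rose by 1.98 (SE 0.54, adjusted p = 0.00208). tRF-Gly-GCC-016 stood at 16500.02, 6731, 13502, 3637 and 3886 CPM, all above the controls, and rose by 1.81 (SE 0.53, adjusted p = 0.0041) on the CPM scale, although edgeR with TMM scaling put it at -0.25 (adjusted p = 0.762). tRF-Gly-GCC-027 stood at 60793, 39017, 46711, 21728 and 19383 CPM, all above the controls, and rose by 1.38 (SE 0.51, adjusted p = 0.0194) on the CPM scale, against -0.25 (adjusted p = 0.804) with median-of-ratios scaling; the call was lost without control 2 or restricted rat 1. tRF-Gly-GCC-024 stood at 806, 4246, 1031, 1151 and 1385 CPM, all above the controls and highest in rat 2, and rose by 1.52 (SE 0.50, adjusted p = 0.0089) on the CPM scale, against -0.10 (adjusted p = 0.908) with median-of-ratios scaling. The rare tRF-Gly-GCC-010 lost its call without restricted rat 2 or 4, and tRF-Gly-GCC-008 without control 2 or restricted rat 1, 3 or 4, while tRF-Gly-GCC-004 was called without control 2 or restricted rat 2 or 3.

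The 2 most abundant fragments were not called in restricted rats. tRF-Gly-GCC-026 was at 74937, 379969.5, 142934, 338987 and 112860.5 CPM there, with rats 2 and 4 far above the other 3, and its log2 fold change was 0.75 (SE 0.50, adjusted p = 0.199), or -0.88 (adjusted p = 0.494) under median-of-ratios scaling. tRF-Gly-GCC-015 was at 28092, 63216, 47278, 53878 and 30126 CPM, 3 of 5 within the control range, with a log2 fold change of 0.55 (SE 0.48, adjusted p = 0.327), or -1.07 (adjusted p = 0.281) with that scaling. tRF-Gly-GCC-023 was at 3632, 4326, 3513, 4502 and 9300.1 CPM, with rat 5 well above the others, and its log2 fold change was 0.52 (SE 0.48, adjusted p = 0.35).

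**Figure D3:**
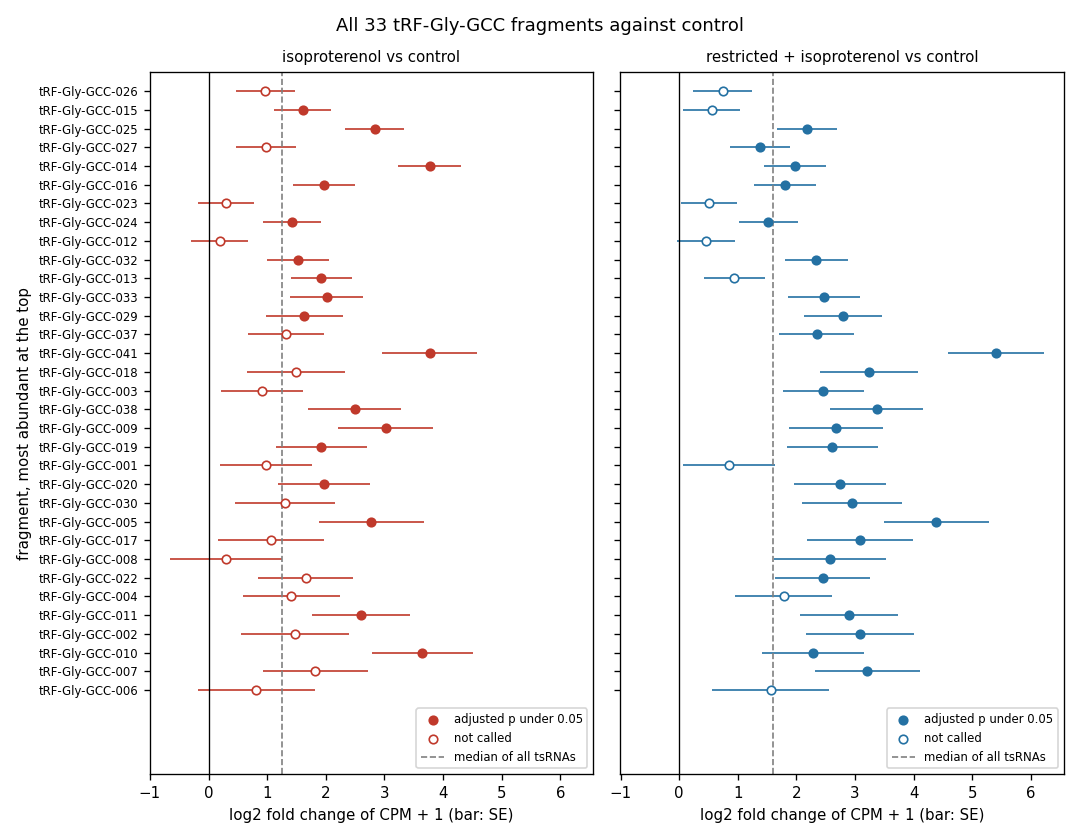
Log2 fold change of CPM plus 1 against control (x axis, bar 1 SE) for all 33 tRF-Gly-GCC fragments, ordered by mean level with the most abundant at the top, in isoproterenol rats (left) and in restricted plus isoproterenol rats (right); both share the same 5 controls. Filled points passed adjusted p under 0.05 and the dashed line is the median of all 707 tsRNAs (1.26 and 1.60). Every point is above 0, 17 are filled on the left and 25 on the right.

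The direct comparison of restricted with isoproterenol rats asks whether the diet before the drug altered the tsRNAs. Of the 33 fragments 0 were called in either direction, as were 0% of all tsRNAs tested, higher or lower, by limma in the main fit. At an unadjusted p under 0.05 there were 7 members, 5 higher and 2 lower, beside 78 higher and 38 lower of all 707 tsRNAs. The median log2 fold change was 0.68 beside 0.44 over all tsRNAs. The lowest adjusted p belonged to tRF-Gly-GCC-014, whose levels of 2491, 6549.7, 13385, 7415 and 5009.8 CPM in restricted rats overlapped 18597, 5938, 26451, 52196 and 26698 CPM in isoproterenol rats. Its log2 fold change was -1.79 (SE 0.54, adjusted p = 0.204). DESeq2 on the recovered reads called it lower, at -2.46 (adjusted p = 0.00719), as it did 3.92% of all tsRNAs, while edgeR with the authors' totals gave -1.90 (adjusted p = 0.0569) and called 0 of the members. tRF-Gly-GCC-015 was at -1.06 (SE 0.48, adjusted p = 0.272) and tRF-Gly-GCC-013 at -0.98 (SE 0.52, adjusted p = 0.341). With log2 of the library total as a covariate, limma called 0 members (smallest adjusted p = 0.0508), beside 5.23% of all tsRNAs higher and 0.849% lower. At an unadjusted p under 0.05 that fit had 9 members higher and 2 lower, beside 175 higher and 51 lower of all 707.

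The 3 fragments with the smallest p on the higher side were all rare. tRF-Gly-GCC-003 was at 22.3, 23.4, 18.9, 24.3 and 5.83 CPM in isoproterenol rats and 61, 35.2, 58.5, 94.1 and 31.5 CPM in restricted rats. It was the only member for which all 5 restricted libraries lay above all 5 isoproterenol libraries, against 0.99% of all tsRNAs tested (and 0.707% with all 5 below); its log2 fold change was 1.54 (SE 0.70, adjusted p = 0.268). tRF-Gly-GCC-008 was at 2.28 (SE 0.96, adjusted p = 0.245), going from 4.13 ± 4.27 to 28.8 ± 23.7 CPM, and tRF-Gly-GCC-017 at 2.02 (SE 0.90, adjusted p = 0.268), going from 10 ± 10.8 to 26.2 ± 16.8 CPM (SD, n = 5 each). The number of members with at least 1 read was 25, 26, 25, 29 and 25 in controls, 31, 30, 31, 31 and 30 in isoproterenol rats and 32, 32, 33, 33 and 32 in restricted rats. The number of all 714 listed tsRNAs with at least 1 read was 593 to 620 in controls, 613 to 646 in isoproterenol rats and 637 to 668 in restricted rats. Library totals differed as well, with a median of 381563 reads in controls, 269399 in isoproterenol rats and 222363 in restricted rats; their part in these numbers was not tested.

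The mix of fragments was tested as shares, in which the library total cancels apart from the 1 CPM added before the log. That added 1 CPM matters for rare fragments. Each fragment was taken as a log2 share of the summed CPM of its own tRNA, and shares were fitted over 644 tsRNAs of families with at least 5 members. With isoproterenol 3 members took a larger share and 0 a smaller one, against 14.3% and 14% of all tsRNAs. tRF-Gly-GCC-014 rose in share by 2.36 (SE 0.54, adjusted p = 0.00288) and stayed called when any single library was left out. tRF-Gly-GCC-025 rose by 1.43 (SE 0.40, adjusted p = 0.0115) and tRF-Gly-GCC-010 by 2.24 (SE 0.70, adjusted p = 0.0216). tRF-Gly-GCC-010 passed the filter through treated libraries, with 1 read in all controls together. Its control share is thus mostly the added 1 CPM. The call of tRF-Gly-GCC-010 was lost without control 5, isoproterenol rat 2 or isoproterenol rat 3. It was also lost with 5 CPM added in place of 1, where tRF-Gly-GCC-014 and 025 stayed called. The share of tRF-Gly-GCC-026 was at -0.44 (SE 0.17, adjusted p = 0.0641), short of the threshold although its groups did not overlap. It was called lower, at -0.44, when only these 2 groups were in the fit.

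tRF-Gly-GCC-026 is the largest part of that sum in every library. With the sum taken without it, an alternative added after the values were seen, 1 member was called higher in share with isoproterenol and 3 lower, beside 17.7% and 14.4% of all tsRNAs. tRF-Gly-GCC-014 was the one higher, at 1.83 (SE 0.51, adjusted p = 0.0107), while tRF-Gly-GCC-025 was at 0.89 (SE 0.44, adjusted p = 0.139) and tRF-Gly-GCC-010 at 1.71 (SE 0.70, adjusted p = 0.0708). Those lower were tRF-Gly-GCC-012 at -1.75 (SE 0.57, adjusted p = 0.0266), tRF-Gly-GCC-023 at -1.64 (SE 0.51, adjusted p = 0.0215) and tRF-Gly-GCC-026 itself at -0.97 (SE 0.33, adjusted p = 0.0339).

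In restricted rats against controls 3 members took a larger share and 0 a smaller one, against 15.2% and 14.6% of all tsRNAs. They were tRF-Gly-GCC-041 at 4.41 (SE 1.03, adjusted p = 0.00352), tRF-Gly-GCC-005 at 3.38 (SE 1.00, adjusted p = 0.0152) and tRF-Gly-GCC-025 at 1.18 (SE 0.40, adjusted p = 0.0325), the last lost without control 2, 4 or 5 or restricted rat 3, 4 or 5. tRF-Gly-GCC-005 and 041 passed the filter through treated libraries, which favoured calls of both as higher. With 0 reads of tRF-Gly-GCC-005 in every control, its control share is the added 1 CPM alone, so 3.38 is not a measured change. With the sum taken without tRF-Gly-GCC-026, tRF-Gly-GCC-005 and 041 were called higher and tRF-Gly-GCC-015 lower, at -0.70 (SE 0.26, adjusted p = 0.0492), beside 15.5% of all tsRNAs in each direction, and tRF-Gly-GCC-025 was not called. With log2 of the library total in the model, tRF-Gly-GCC-041 alone of these 3 stayed called. With 5 CPM added in place of 1, tRF-Gly-GCC-025 and 041 stayed called and tRF-Gly-GCC-005 did not. Between restricted and isoproterenol rats 0 shares were called in the main fit, as were 0% of all tsRNAs, and tRF-Gly-GCC-014 was at -1.39 (SE 0.54, adjusted p = 0.236). With log2 of the library total in the model 0 members were called there, beside 1.09% of all tsRNAs in each direction.

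Ratios of fragments with neighbouring numbers do not depend on the scaling. These pairs were chosen after the values were seen and are given with no test. The ratio of tRF-Gly-GCC-014 to 015 was 0.0965, 0.0429, 0.0746, 0.0251 and 0.0554 in controls 1 to 5, 0.117, 0.0921, 0.477, 0.298 and 0.50 in isoproterenol rats and 0.0887, 0.104, 0.283, 0.138 and 0.166 in restricted rats. The ratio of tRF-Gly-GCC-025 to 026 was 0.107, 0.0666, 0.0963, 0.0406 and 0.0624 in controls, 0.129, 0.151, 0.579, 0.282 and 0.355 in isoproterenol rats and 0.18, 0.115, 0.273, 0.157 and 0.286 in restricted rats. For the second pair every treated library lay above every control, and in both pairs isoproterenol rats 3, 4 and 5 were the highest of their group.

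On the other side of the same fragments the pattern differed. The ratio of tRF-Gly-GCC-016 to 015 was 0.0647, 0.0646, 0.0635, 0.115 and 0.0661 in controls, 0.10, 0.319, 0.0823, 0.019 and 0.142 in isoproterenol rats and 0.587, 0.106, 0.286, 0.0675 and 0.129 in restricted rats. The ratio of tRF-Gly-GCC-027 to 026 was 0.103, 0.11, 0.127, 0.193 and 0.122 in controls, 0.139, 0.403, 0.131, 0.0312 and 0.159 in isoproterenol rats and 0.811, 0.103, 0.327, 0.0641 and 0.172 in restricted rats. Both were highest in control 4, isoproterenol rat 2 and restricted rat 1, and both were lowest in isoproterenol rat 4. A library held the same rank within its group on both ratios in 12 of 15 cases, against 4 of 15 for the former pair of ratios. The groups overlapped on both.

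**Figure D4:**
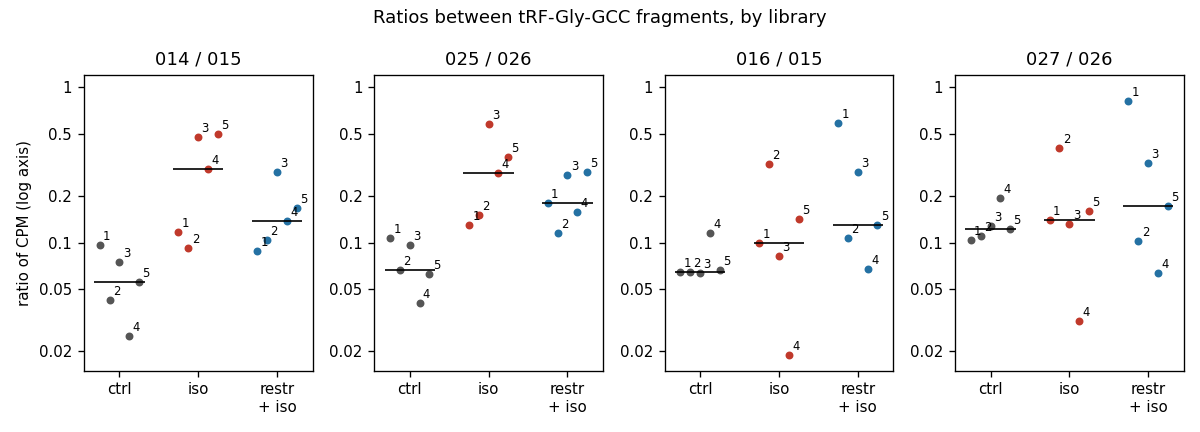
Ratios of CPM between tRF-Gly-GCC fragments with neighbouring numbers (y axis, log scale) in each library, with the replicate number beside each point and the group median as a line. For 025 to 026 the 5 controls lie at or below 0.107 and all treated libraries above, while for 016 to 015 and 027 to 026 the groups overlap and single libraries (control 4, isoproterenol 2, restricted 1) lead their group.

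The 2 tiRNAs of the same tRNA, the longer products of cleavage in the anticodon loop, were highest in those same libraries. tiRNA-Gly-GCC-001 was at 168, 325, 282, 615 and 472 CPM in controls, 1952, 3203, 1150.1, 803 and 599 CPM in isoproterenol rats and 4151, 616, 1513, 347 and 522 CPM in restricted rats. tiRNA-Gly-GCC-002 was at 2006, 3691, 2523, 3876 and 2789 CPM in controls, 6596, 9876, 2998, 1917 and 3267 CPM in isoproterenol rats and 9205, 4794, 4576, 2935 and 2267 CPM in restricted rats. Control 4, isoproterenol rat 2 and restricted rat 1 thus led their groups on both. Of the 2 tiRNAs, 1 was called higher in each comparison with controls, and 0 with median-of-ratios scaling, where their median log2 fold change was -0.03 with isoproterenol (smallest adjusted p = 0.367) and -0.62 in restricted rats (smallest adjusted p = 0.149).

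The size of the rise depended on how libraries were scaled. With median-of-ratios scaling, which moved the median of all tsRNAs from 1.26 to 0.15 for isoproterenol and from 1.60 to 0.24 for restricted rats, 4 members rose with isoproterenol (tRF-Gly-GCC-005, 010, 014 and 041) beside 16.1% of all tsRNAs. In restricted rats 5 members rose (tRF-Gly-GCC-005, 007, 029, 038 and 041) beside 15.1%. Of those named, tRF-Gly-GCC-005, 007, 010 and 041 passed the filter through treated libraries. Under this scaling tRF-Gly-GCC-014 was at 2.52 (adjusted p = 0.00426) with isoproterenol, tRF-Gly-GCC-041 at 3.04 (adjusted p = 0.00475) and tRF-Gly-GCC-026 at -0.28 (adjusted p = 0.851). Scaling the listed tsRNAs to the same total gave 6 and 16 members higher, beside 14% and 28% of all tsRNAs, and log2 of the library total as a covariate gave 10 and 24, beside 23.2% and 36.9%.

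Tests were also run on the recovered reads. The filter on low counts used for edgeR kept 17 of the 33 members and 347 tsRNAs in all, so its counts are of 17. With the authors' totals it called 12 of the 17 higher in each comparison (70.6%), beside 53.6% and 61.1% of the tsRNAs it tested. With TMM scaling it called tRF-Gly-GCC-014, 025 and 041 higher with isoproterenol (21.3% of all) and tRF-Gly-GCC-018, 029, 038 and 041 higher in restricted rats (22.2%). DESeq2 called tRF-Gly-GCC-010, 014, 025 and 041 higher with isoproterenol (16% of all), and tRF-Gly-GCC-005, 018, 029, 032, 038 and 041 in restricted rats (15.1%). Both called tRF-Gly-GCC-012 and 023 lower in each comparison, beside 23.1% and 25.4% of all tsRNAs for edgeR with TMM and 18.8% and 22.5% for DESeq2. For tRF-Gly-GCC-023 the TMM values were -1.37 (adjusted p = 0.0334) and -1.34 (adjusted p = 0.0369), so its direction depended on the scaling.

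**Figure D5:**
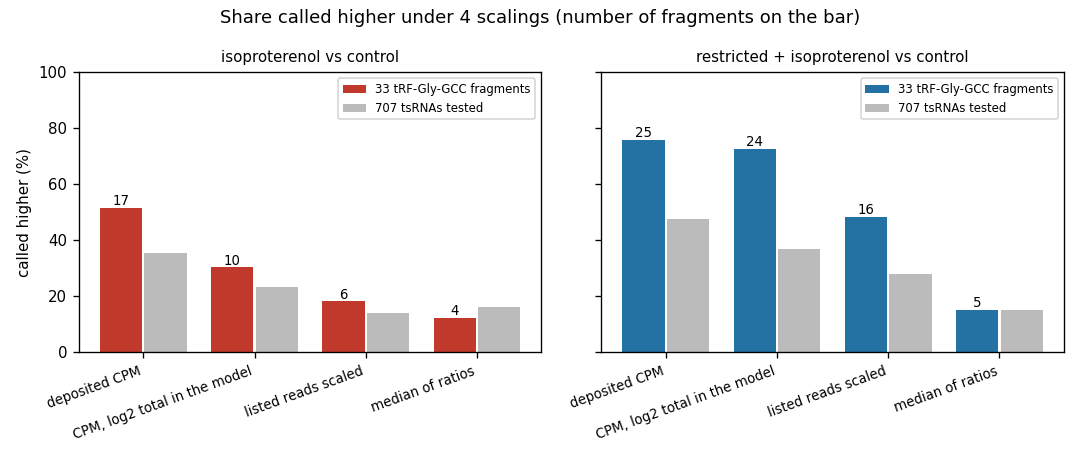
Share of the 33 tRF-Gly-GCC fragments (coloured bars, with the number of fragments on the bar) and of all 707 tsRNAs tested (grey bars) that were called higher (%, y axis from 0) against control under 4 scalings, for isoproterenol rats (left) and restricted plus isoproterenol rats (right). The coloured bar falls from 17 to 4 fragments on the left and from 25 to 5 on the right, and with median-of-ratios scaling the coloured and grey bars stand at 12.1% and 16.1% on the left and at 15.2% and 15.1% on the right.

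Other families are given only to place these counts. With isoproterenol, 5 of 16 tRF-Gly-CCC, 10 of 22 tRF-Gly-TCC, 5 of 15 tRF-Glu-CTC, 15 of 24 tRF-Glu-TTC, 13 of 25 tRF-Val-CAC, 8 of 15 tRF-Lys-CTT and 20 of 26 tRF-His-GTG fragments rose. In restricted rats the counts were 8, 13, 5, 15, 15, 7 and 20 in the same order. In that order 1, 2, 2, 0, 0, 1 and 3 fell with isoproterenol, and 1, 1, 0, 0, 0, 1 and 3 in restricted rats. The 17 and 25 of 33 tRF-Gly-GCC fragments lay within the span of these shares, and the difference between families was not tested.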

How the data were processed

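The small RNA libraries were size selected at 134 to 160 bp (inserts of 14 to 40 nt) after treatment that removes modifications blocking reverse transcription, per the labels' protocols. The authors deposited CPM (reads per 1000000 of the library total) for 714 tsRNAs, 1 column per rat; cutadapt and edgeR are named, per the submitters' processing notes, and no source used here names the aligner, the tRNA reference or the build. Of the deposited CPM values 100% came out as whole reads (tolerance 0.001 reads), which gave the reads and library totals; whether reads were collapsed before counting is not known, and counting intervals cover counting error only.

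Here log2(CPM + 1) was fitted with limma 3.58.1 (eBayes with trend, R 4.3.3) over the 707 tsRNAs that reached 1 CPM in 5 or more libraries, all 3 groups in 1 model, two-sided, and Benjamini-Hochberg adjustment within a comparison; adjusted p under 0.05 is a call. Fold changes on this scale are less certain for low fragments, since libraries at 0 weigh heavily. A second limma fit used log2(CPM + 1) minus log2 of the summed CPM of the same class and anticodon. edgeR 4.0.16 (quasi-likelihood) and DESeq2 1.42.0 were run on the recovered reads. Alternatives covered scaling, pseudocount, filter, covariates and leaving out each library. The main limma fits of level and share, edgeR with the authors' totals and DESeq2 were run on simulated data with as many rises as falls. The other scalings, the covariates and the share without the most abundant member were not simulated. Named fragments are the 8 most abundant, up to 10 others with the largest change per direction and comparison, and the 3 with the smallest p per direction where fewer than 3 passed; others were named after their values were seen. The members, lists and families were chosen with earlier results of these data known. The labels name no pairing by replicate number, and no microRNA or mRNA marker was analysed here.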

Additional observations from a re-analysis of the deposited data

Results flagged for a closer look

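In 129 groups of 5 libraries checked for a single library far from the other 4 (Dixon's ratio above 0.71), 15 stood out. That limit holds for independent normal values, which these are not, so the 15 cannot be set against a chance rate. tRF-Gly-GCC-023 was at 9300 CPM in restricted rat 5, the others of its group lying between 3513 and 4502, and its share of the family was 4.23% there. tRF-Gly-GCC-024 was at 4246 CPM in restricted rat 2, the others between 806 and 1385. Among rare fragments with few reads, tRF-Gly-GCC-041 was at 7.86 CPM in control 5, tRF-Gly-GCC-010 at 0.886 CPM in control 4 and tRF-Gly-GCC-007 at 2.36 CPM in control 2, each with the other 4 controls at or near 0. For tRF-Gly-GCC-010 and 007 this was a single read beside 0 in the other 4 controls, which forces the highest ratio. tRF-Gly-GCC-007 was at 18.9 CPM in isoproterenol rat 3. tRF-Gly-GCC-011 was at 23.4 CPM and tRF-Gly-GCC-019 at 54.7 CPM in isoproterenol rat 2. tRF-Gly-GCC-009 was at 54.9 CPM and tRF-Gly-GCC-018 at 85.5 CPM in restricted rat 1.

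Control 4, the most deeply sequenced library with 1128887 reads, stood apart on 3 further quantities. Its ratio of tRF-Gly-GCC-016 to 015 was 0.115 against 0.0635 to 0.0661 in the other controls, and its ratio of 027 to 026 was 0.193 against 0.103 to 0.127. The share of tRF-Gly-GCC-027 in the family was 10.8% there. Restricted rat 3 had a ratio of tRF-Gly-GCC-014 to 025 of 0.343, against 0.139 to 0.185 in the others of its group. The causes were not tested.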

How the results depend on the processing

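The number of members called depended mainly on scaling and on the test. For isoproterenol against control it went from 17 to 10 with log2 total as a covariate and 6 with the listed tsRNAs scaled to the same total. It was 6 by DESeq2 (4 higher, 2 lower), 5 by edgeR with TMM (3 higher, 2 lower) and 4 with median-of-ratios scaling. For restricted rats against control it went from 25 to 16 with listed reads scaled and 12 by edgeR with the authors' totals. It was 8 by DESeq2 (6 higher, 2 lower), 6 by edgeR with TMM (4 higher, 2 lower) and 5 with median-of-ratios scaling. All other calls in these counts against control were higher, and the shares over all tsRNAs are given above. The edgeR counts are of the 17 members its filter kept, so the filter differed as well. In restricted rats, 12 of 17 with the authors' totals is 70.6%, beside 75.8% of 33 in the main fit. Between restricted and isoproterenol rats it went from 0 to 1 by DESeq2. Changed shares of the family in restricted rats against control went from 3 to 1 with the covariate and 7 with only these groups in the fit, and from 2 to 6 when single libraries were left out (6 without restricted rat 2). The difference in the share of listed reads, isoproterenol minus control, was 14.4 percentage points. It was 25.2 with tRF-Gly-GCC-026 left out of both the family and the listed reads, which is a share of a different total. Other pseudocounts and filters kept each count within 1.5 times. The numbers 1 to 5 are shared by the groups, and the labels name no pairing. Of 15 same-number pairs 1 correlated over 0.1 (range -0.119 to 0.253), and 3 of 15 libraries correlated best with their own number. Such correlations cannot show that pairing was absent. With the replicate block the counts were 17, 0 and 25 for levels and 3, 0 and 3 for shares.

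Log2 fold changes turned below 0 for several abundant members, given here in the order median-of-ratios, listed reads scaled, edgeR with TMM and DESeq2. With isoproterenol tRF-Gly-GCC-026 was at -0.28, -0.13, -0.17 and -0.030, tRF-Gly-GCC-027 at -0.26, -0.10, -0.25 and -0.11, and tRF-Gly-GCC-023 at -0.95, -0.79, -1.37 and -1.25. In restricted rats against control tRF-Gly-GCC-026 was at -0.88, -0.045, -0.53 and -0.49, tRF-Gly-GCC-015 at -1.07, -0.24, -1.21 and -1.18, and tRF-Gly-GCC-023 at -1.11, -0.28, -1.34 and -1.27. There, without listed scaling, tRF-Gly-GCC-027 was at -0.25, -0.43 and -0.43, tRF-Gly-GCC-016 at -0.25 (TMM) and -0.27 (DESeq2) and tRF-Gly-GCC-024 at -0.10 (median-of-ratios). Restricted against isoproterenol, none of them called, tRF-Gly-GCC-026 was at 0.081 and tRF-Gly-GCC-016 at 0.14 with listed scaling, tRF-Gly-GCC-027 at -0.18 (TMM) and -0.32 (DESeq2), tRF-Gly-GCC-023 at -0.16 (median-of-ratios) and -0.023 (DESeq2), and tRF-Gly-GCC-024 at -0.28 (median-of-ratios). Leaving out single libraries gave ranges of -0.50 to 0.081, -0.49 to 0.17, -0.028 to 0.45 and -0.30 to 0.30 for tRF-Gly-GCC-026, 016, 023 and 024. Among shares with isoproterenol, the sum without tRF-Gly-GCC-026 put tRF-Gly-GCC-015 at -0.33 and tRF-Gly-GCC-024 at -0.51, and the covariate put tRF-Gly-GCC-024 at -0.013; leaving out libraries gave -0.82 to 0.094 for tRF-Gly-GCC-027 and -0.21 to 0.24 for tRF-Gly-GCC-024. Between restricted and isoproterenol rats tRF-Gly-GCC-025 was at 0.035 with that sum, and tRF-Gly-GCC-016 ranged from -0.22 to 0.66. The causes were not tested. Without a single library, tRF-Gly-GCC-007, 018, 022, 030 and 037 were each called with isoproterenol. The 19 rarest members had 0 to 34 reads per library, and the smallest change that such counts can show was not computed.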
